A study of Homo sapiens with 6 samples.

Results

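The genes described here are 10 members of bone morphogenetic protein (BMP) signalling, taken by symbol from a table of 58735 listed genes: the ligands BMP4 and BMP2, the receptors BMPR1A and BMPR2, the signal transducers SMAD1 and SMAD5, and the inhibitor of differentiation genes ID1, ID2, ID3 and ID4. RNA-seq had been performed on 6 libraries of HCT116, an established human colorectal carcinoma cell line. The 3 libraries labelled control (genotype label WT) are called CTR, and the 3 labelled miR-8485 mimics are called miR-8485. Both groups were HCT116 cells with no other allele or agent named. The miR-8485 cells had received a synthetic copy of the mature microRNA at 50 nM. The study's methods name collection 48 h after transfection or at indicated times, and their RNA-seq section gives no separate time. The control sequence and its dose were not given in the sources used here, and a mimic sets a level of the microRNA from outside the cell rather than from its own gene. The comparison asks which genes differ in RNA level once the mimic is present.

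BMP ligands are secreted proteins that bring together type I receptors such as BMPR1A and type II receptors such as BMPR2 on the cell surface. The type II receptor phosphorylates the type I receptor, which phosphorylates SMAD1, SMAD5 and SMAD9, and these enter the nucleus with SMAD4 and bind regulatory DNA. The ID genes are the classical direct targets: their products are helix-loop-helix proteins without a DNA-binding region that pair with E proteins such as TCF3 and keep them off DNA. In the intestine BMP signals are strongest toward the surface of the epithelium and oppose the WNT-dependent stem cell compartment, and receptors and SMADs of the route are altered in some colorectal cancers and polyposis syndromes.

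The mimic is shown because its seed, the bases that pair with messenger RNA, is the start of a run of CA repeats, and sites for it are therefore TG repeats. The strand printed in the study's methods, where it is called the sense strand, has 17 bases, and the capitals mark bases 2 to 8, the seed ACACACA.
miR-8485 mimic: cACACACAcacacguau
The complementary letters TGTGTGT were searched for in 3′ UTRs of the GENCODE 44 annotation (GRCh38, the same assembly as the hg38 named in the labels), and 6 of the 10 genes held them in their longest 3′ UTR. The windows below are from BMPR1A, BMPR2, ID4 and BMP4, chosen to show 2 receptors and a ligand that fell beside ID4, which did not pass the test. Each is written 5′ to 3′ on the messenger strand with the matching run in capitals.
BMPR1A: tagtgaTGTGTGTGTGTctccat
BMPR2: gttataTGTGTGTGTatcaaa
ID4: atattaTGTGTGTGTtttttt
BMP4: tacagcTGTGTGTttgtcg
The BMPR1A run lies at chr10:86924228-86924250 on the + strand, 515 bases after the stop codon in a 3′ UTR of 4250 bases, and holds 3 overlapping matches. The BMPR2 run lies at chr2:202560203-202560223 on the + strand, with 2 overlapping matches in a 3′ UTR of 8049 bases. The ID4 run lies at chr6:19839824-19839844 on the + strand, with 2 overlapping matches, and a further single match at chr6:19840901-19840919 lies past position 19840684, where the gene ends in the deposited table. The BMP4 match lies at chr14:53951516-53951534 on the - strand, in the longest annotated 3′ UTR of the gene, which belongs to a noncanonical transcript. Only the longest and the canonical 3′ UTR of a gene were searched. The canonical BMP4 3′ UTR held 0 matches. BMP2 and SMAD5 had 2 separate matches each, and ID1, ID2, ID3 and SMAD1 had 0.

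Expression was read as FPKM, fragments scaled to the length of the gene and to the fragments of the library, which is a scale per length on which genes can be compared. The libraries held between 17473874 and 18480047 fragments on listed genes. Replicates differed by more than counting error, and CTR replicate 1 stood apart from the other 2 CTR libraries, with a chi-square per gene of 10.5 and 8.46 against them. The other 4 pairs within a group were at 2.75 to 3.87, and the 9 pairs between groups at 61.0 to 70.3. Without CTR replicate 1 the log2 fold changes of BMP4, ID1, ID2, ID3, BMPR1A and BMPR2 were -1.05, -1.07, -1.0003, 0.66, -0.35 and -0.43, and all 6 kept a limma adjusted p under 0.05. The study's methods call the replicates independent. The gene entry of the microRNA itself, MIR8485, was listed at 0 in all 6 libraries, so the libraries do not check the dose of the mimic. Of 8 epithelial markers 7 had a mean of at least 1 FPKM, with VIL1 near 0, and they moved in both directions. KRT8 (-0.62 on the log2 scale), KRT18 (-0.97) and KRT19 (-0.58) fell, CDX2 (0.81) and CLDN7 (0.40) rose, and EPCAM (-0.048) and CDH1 (-0.049) passed the limma test in neither direction. Their sum, most of it keratins, was 2667 to 2895 FPKM in CTR and 1823 to 1913 in miR-8485. Of 6 fibroblast markers only COL1A1 reached that level, with a summed list of 4.30 to 4.53 FPKM in CTR and 6.36 to 6.53 in miR-8485 and DCN at 0. The 5 leukocyte and 4 endothelial markers stayed below it in both groups, with CD3E at 0. The part of these marker differences in the results below was not tested.

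Much of the transcriptome differed between the groups, and the members have to be read against that. Among the 12349 genes with a mean of at least 1 FPKM over the 6 libraries, limma on log2(FPKM + 0.1) called 3593 higher in miR-8485 (29.1%) and 3769 lower (30.5%) at an adjusted p under 0.05 (Benjamini-Hochberg). Of these calls 48.8% were higher, and after rescaling to TPM, which moves the median of all genes to -0.12 on the log2 scale, 2614 were higher and 4723 lower, so that 35.6% were higher. Of the 10 members 8 passed the filter on FPKM, of which 5 were called lower, 1 higher and 2 neither. Their median log2 fold change was -0.36 and that of all tested genes -0.0041. The values of the 2 groups did not overlap for 6 of the 8, and 66.5% of all tested genes were separated in the same way. In bulk RNA, fewer cells with a transcript and less transcript per cell cannot be told apart.

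The ligand BMP4 fell. It is a secreted growth factor that also acts in early development, and its gene (ENSG00000125378) lies at chr14:53949736-53958761. Its level was 80.5, 98.8 and 102 FPKM in CTR and 49.4, 46.7 and 49.5 FPKM in miR-8485. The groups did not overlap, and the lowest CTR library was the first replicate. The mean went from 93.8 ± 11.6 to 48.5 ± 1.62 FPKM (SD, n = 3 each), which is a log2 difference of -0.94 (standard error 0.089, 95% interval -1.15 to -0.73, limma adjusted p = 9.41e-05). These levels rest on 4472 to 5692 fragments in CTR and 2602 to 2907 in miR-8485. Among tested genes 5.46% had a lower log2 fold change than BMP4.

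BMP2, the closest relative of BMP4 among the ligands, was hardly detected. Its 6 fragments were all in the first CTR replicate, at 0.0924 FPKM, and the other 5 libraries held 0. A count of 0 allows up to 3 fragments, which corresponds to 0.0437 to 0.0464 FPKM in these libraries, for counting error only. No fold change is given, since a difference was not detectable at this depth.

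The receptors fell less than the ligand. BMPR1A, the type I receptor also called ALK3, lies at chr10:86756601-86932838 and was at 3.80, 3.99 and 3.62 FPKM in CTR and at 2.67, 3.07 and 3.18 FPKM in miR-8485. The 3 CTR values all exceeded the 3 of miR-8485. The mean went from 3.80 ± 0.185 to 2.97 ± 0.267 FPKM (SD, n = 3 each), which is -0.35 on the log2 scale (standard error 0.087, 95% interval -0.55 to -0.14, limma adjusted p = 0.0108). Its fragments numbered 747 to 823 in CTR and 548 to 692 in miR-8485.

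BMPR2, the type II receptor whose loss is known from pulmonary arterial hypertension, lies at chr2:202376936-202567751. It was at 2.50, 2.81 and 2.80 FPKM in CTR and at 2.22, 1.81 and 2.17 FPKM in miR-8485, again without overlap. The mean went from 2.70 ± 0.173 to 2.07 ± 0.225 FPKM (SD, n = 3 each), a log2 fold change of -0.38 (standard error 0.11, 95% interval -0.63 to -0.12, limma adjusted p = 0.0197). This call is less firm than that of BMPR1A. It was lost when all 31768 genes above 0 were tested (adjusted p = 0.0521), when a trend against gene length (-0.26, 0.0723) or GC content (-0.27, 0.0769) was removed, and without CTR replicate 2 (0.0623), CTR replicate 3 (0.0609) or miR-8485 replicate 2 (0.0555), always in the same direction. The ratio of BMPR1A to BMPR2 within a library was 1.29 to 1.52 in CTR and 1.203 to 1.70 in miR-8485, so the balance between both receptors overlapped between the groups.

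Neither of the receptor-activated SMADs passed the test. SMAD1, at chr4:145481194-145558079, was at 1.996, 2.06 and 1.71 FPKM in CTR and 1.41, 1.96 and 1.60 FPKM in miR-8485, and the second miR-8485 replicate lay inside the CTR range. Its log2 fold change was -0.21 (standard error 0.15, 95% interval -0.56 to 0.14, limma adjusted p = 0.262). It moved with single libraries, to -0.10 without miR-8485 replicate 1 and -0.33 without miR-8485 replicate 2, and passed the test in neither case. With 153 to 226 fragments a library, SMAD1 was the thinnest of the 8 members past the filter.

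SMAD5, at chr5:136132845-136188747, was more abundant and steadier. It was at 9.20, 9.36 and 9.53 FPKM in CTR and 8.46, 8.78 and 9.23 FPKM in miR-8485, where the third replicate lay inside the CTR range. The log2 fold change was -0.086 (standard error 0.052, 95% interval -0.21 to 0.037, limma adjusted p = 0.195), so that a fall of more than 0.21 on the log2 scale lay outside the interval. Rescaling to TPM made it a call (-0.20, limma adjusted p = 0.0304), and removing the trend against gene length (0.00042) or GC content (0.042) turned its sign. The ratio of SMAD5 to SMAD1 was 4.54 to 5.59 in CTR and 4.47 to 6.02 in miR-8485, which overlapped.

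**Figure D1:**
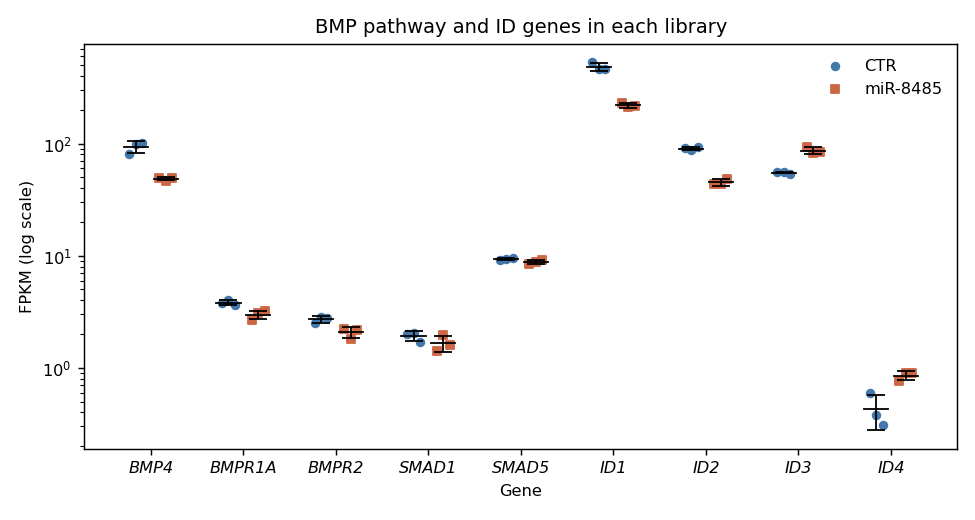
FPKM on a log axis for 9 of the 10 genes, with a point for each library (circles CTR, squares miR-8485), a horizontal line at the group mean and bars of 1 SD over 3 libraries. BMP4, BMPR1A, BMPR2, ID1 and ID2 lie lower and ID3 and ID4 higher in miR-8485 without overlap, while SMAD1 and SMAD5 overlap. BMP2, at 0 in 5 libraries, is not drawn.

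The ID genes divided. ID1 and ID2 fell, ID3 rose, and ID4, which was scarce, was higher in each miR-8485 library without passing the test. ID1 was the most abundant of the 10 genes and lies at chr20:31605283-31606515. It was at 529, 463 and 458 FPKM in CTR and at 232, 211 and 217 FPKM in miR-8485, with a gap between the groups far wider than the spread within them. The mean went from 484 ± 39.8 to 220 ± 10.9 FPKM (SD, n = 3 each) and so fell by 54.5%. The log2 fold change was -1.14 (standard error 0.068, 95% interval -1.29 to -0.98, limma adjusted p = 1.29e-05), and 3.60% of tested genes had a lower value.

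ID2, at chr2:8678845-8684453, restrains differentiation in many lineages and was at 91.0, 87.2 and 92.6 FPKM in CTR. In miR-8485 it was at 43.2, 43.4 and 48.3 FPKM, and the groups did not overlap. The mean went from 90.3 ± 2.74 to 44.9 ± 2.88 FPKM (SD, n = 3 each), a log2 fold change of -1.01 (standard error 0.055, 95% interval -1.14 to -0.88, limma adjusted p = 9.69e-06). With these settings ID1 and ID2 were the 2 members that fell by at least 1 on the log2 scale, as 4.49% of tested genes did. This cut depended on the setting, since ID2 was at -0.99 with a pseudocount of 1 and BMP4 at -1.06 in TPM.

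ID3, at chr1:23557918-23559794, went the other way. It was at 55.3, 55.3 and 54.0 FPKM in CTR and at 93.3, 82.0 and 84.1 FPKM in miR-8485, so every miR-8485 library exceeded the CTR libraries. The mean went from 54.9 ± 0.742 to 86.5 ± 6.03 FPKM (SD, n = 3 each), a log2 fold change of 0.65 (standard error 0.055, 95% interval 0.52 to 0.78, limma adjusted p = 5.64e-05). Of the tested genes 89.8% had a lower log2 fold change. The fragments behind ID3 numbered 1757 to 1798 in CTR and 2664 to 3012 in miR-8485.

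ID4, at chr6:19837386-19840684, was scarce, with 0.592, 0.377 and 0.306 FPKM in CTR and 0.760, 0.896 and 0.896 FPKM in miR-8485. These values rest on 25, 16 and 13 fragments in CTR and on 32, 38 and 40 in miR-8485, and the highest CTR library lay below the lowest miR-8485 library. The mean was 0.425 ± 0.148 and 0.851 ± 0.0785 FPKM (SD, n = 3 each). In the fit of all 31768 genes above 0, in which 10.8% were called higher, the log2 fold change was 0.89 (standard error 0.27, 95% interval 0.23 to 1.55, limma adjusted p = 0.0677). It passed with a pseudocount of 0.01 (1.03, adjusted p = 0.0465), without a variance trend (0.0497), with voom, which weights the recovered fragments (1.02, 0.0344), and without CTR replicate 1 (1.11, 0.0305). It did not pass in the other alternatives, in which a pseudocount of 1 gave 0.38 (0.0576) and the adjusted p reached 0.175 without miR-8485 replicate 2.

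**Figure D2:**
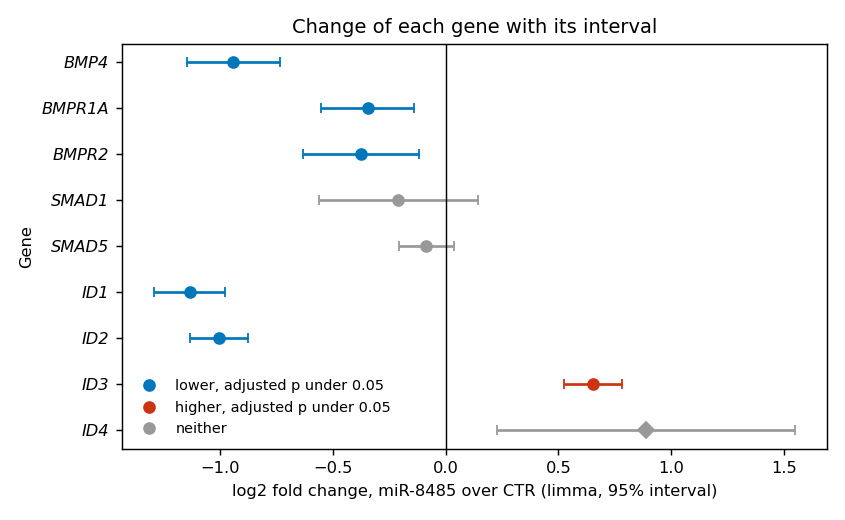
The log2 fold change of miR-8485 over CTR (horizontal axis) with its 95% interval from limma for 9 genes, coloured by whether the adjusted p was under 0.05; the diamond marks ID4, which was fitted with every gene above 0. The intervals of BMP4, ID1 and ID2 lie around -1, and those of BMPR1A and BMPR2 closer to 0. Those of ID3 and ID4 lie wholly above 0, although ID4 did not pass the test (limma adjusted p = 0.0677).

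The makeup of the ID family shifted with these changes. The summed level of the 4 genes was 605 to 676 FPKM in CTR and 337 to 369 FPKM in miR-8485. ID1 made up 75.7% to 78.3% of the sum in CTR and 61.9% to 62.8% in miR-8485, while the share of ID3 was 8.18% to 9.12% in CTR and 24.0% to 25.3% in miR-8485. Within a library ID1 stood 8.38 to 9.57 times above ID3 in CTR and 2.48 to 2.58 times above it in miR-8485. ID2 was above ID3 in every CTR library, with ratios of 1.58 to 1.71, and below it in every miR-8485 library, with ratios of 0.463 to 0.574. The ratio of ID1 to ID2 did not separate the groups, at 4.94 to 5.82 in CTR and 4.49 to 5.37 in miR-8485. These ratios are taken within a library, so scaling between libraries does not enter them.

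**Figure D3:**
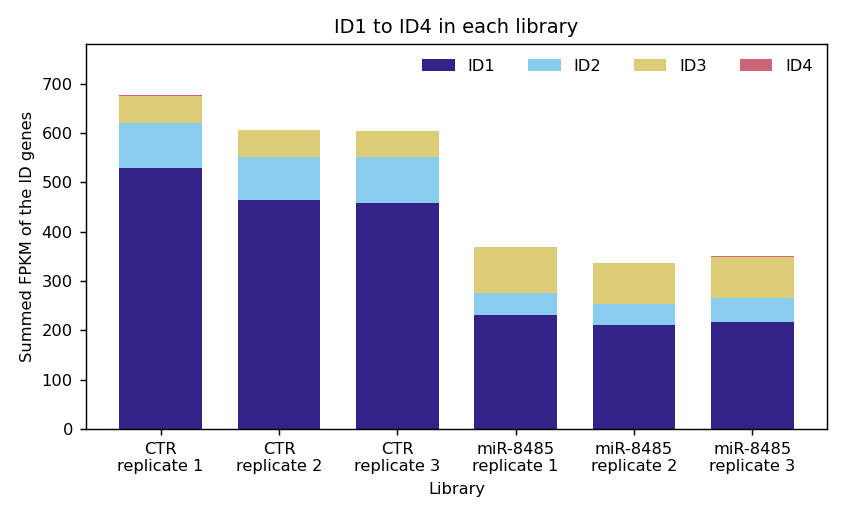
Summed FPKM of ID1, ID2, ID3 and ID4 in each library, stacked by gene from 0 on a linear axis. The CTR bars end between 605 and 676 FPKM and the miR-8485 bars between 337 and 369 FPKM, and the band of ID3 is wider in miR-8485 while those of ID1 and ID2 are narrower.

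By level in CTR the order was ID1, BMP4, ID2, ID3, SMAD5, BMPR1A, BMPR2, SMAD1, ID4 and BMP2, in which only the neighbours BMP4 and ID2 overlapped. In miR-8485 ID3 stood second, above BMP4 and ID2, and the neighbours that overlapped were BMP4 with ID2 and BMPR2 with SMAD1. Genes that could share reads with the members carried few of them. The 12 genes that overlap a member in the table reached at most 0.318 FPKM or 7 fragments in a library, the latter for ID2-AS1, and the 2 pseudogenes BMPR1AP1 and BMPR1AP2 reached at most 4 fragments. Whether fragments were counted by strand was not given in the sources used here, so antisense reads could not be told from those of the members. The handling of fragments that fit several genes was not given either, so these low counts do not show that few were shared.

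The rest of the pathway was followed with 7 lists of 68 genes by role, of which 39 had a mean of at least 1 FPKM. Of these, 24 were called lower, 5 higher and 10 neither, with a median log2 fold change of -0.29, and 30 had groups that did not overlap. Over all tested genes 30.5% were called lower, 29.1% higher and 66.5% did not overlap, and the lists that follow stand against the same shares. BMP6, ACVR2B, TGFBR3 and CHRD, all called lower, passed the filter only through CTR, with means below 1 FPKM in miR-8485. At their miR-8485 level in both groups they would not have been tested, which limits what their part in these counts can show. Among ligands, 3 of 4 tested were lower. BMP6, a ligand that also sets hepcidin in the liver, was at 2.47, 1.97 and 1.83 FPKM in CTR and 0.741, 0.855 and 0.623 FPKM in miR-8485, which gave a log2 fold change of -1.38 (standard error 0.19, limma adjusted p = 0.000548). BMP7 and BMP8B, whose CTR libraries were also above all miR-8485 libraries, had log2 fold changes of -0.48 and -0.59. BMP4 was the most abundant ligand of those tested in both groups.

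Of the 5 other receptors and co-receptors tested, 3 were lower. ACVR1, a type I receptor also called ALK2, was at 5.49, 5.61 and 5.46 FPKM in CTR and 3.67, 3.89 and 3.37 FPKM in miR-8485, so it was the most abundant type I receptor of the list and its log2 fold change was -0.59 (standard error 0.070, limma adjusted p = 0.000287). The type II receptor ACVR2B (-0.95) and the co-receptor TGFBR3 (-0.82) were lower too. Their means were 1.37 and 1.80 FPKM in CTR and 0.662 and 0.979 FPKM in miR-8485, so both passed the filter only through CTR. The type II receptor ACVR2A was at 2.19 ± 0.124 FPKM in CTR and 2.19 ± 0.121 in miR-8485 (SD, n = 3 each), with a 95% interval of -0.22 to 0.22 for its log2 fold change, and the co-receptor RGMB was at -0.084 with overlapping groups. Its relative RGMA, below the filter and named here after its values were seen, was at 1.003 to 1.10 FPKM in CTR and 0.280 to 0.342 FPKM in miR-8485. In the fit of all 31768 genes above 0, in which 3598 were called lower, RGMA had a log2 fold change of -1.47 (limma adjusted p = 0.00332). BMPR1B, another BMP type I receptor, was near 0 in every library, at most 0.0175 FPKM.

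All 3 other SMADs that were tested fell. SMAD4, the shared partner of the receptor-activated SMADs, was at 4.49, 4.92 and 4.69 FPKM in CTR and 2.9995, 3.10 and 3.17 FPKM in miR-8485. Its log2 fold change was -0.59 (standard error 0.066, limma adjusted p = 0.000221), and its groups did not overlap. The inhibitory SMAD7 had a log2 fold change of -0.60, and the inhibitory SMAD6, itself a BMP target, one of -0.37 (limma adjusted p = 0.0245). The call of SMAD6 was lost in 7 of 17 alternatives, among them the fits without CTR replicate 1 (adjusted p = 0.0708), CTR replicate 2 (0.0574), miR-8485 replicate 1 (0.0710) and miR-8485 replicate 2 (0.0701). SMAD9 was below the filter, at 0.438 to 0.657 FPKM.

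Of 7 extracellular antagonists and modulators tested, 6 were called lower and 1 higher, against 30.5% and 29.1% of all tested genes. CHRD, a secreted protein that binds BMP ligands, was at 2.62, 2.34 and 2.02 FPKM in CTR and 0.723, 0.869 and 1.17 FPKM in miR-8485, which gave a log2 fold change of -1.27 (standard error 0.19, limma adjusted p = 0.00102). TWSG1, which binds ligands together with CHRD, had a log2 fold change of -0.71, and CRIM1 and FSTL1 had changes of -0.46 each. The higher gene was FSTL3, at 0.20. It is named after its values were seen, and its call was lost in 9 of 18 alternatives, among them the fits without CTR replicate 2 (adjusted p = 0.0807), CTR replicate 3 (0.0884), miR-8485 replicate 1 (0.0808) and miR-8485 replicate 2 (0.0738). The ligand traps NOG and GREM1 were below the filter.

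Of 13 intracellular modulators 6 were lower, 2 higher and 5 neither, against 30.5% lower and 29.1% higher of all tested genes. TOB1, which restrains SMAD-driven transcription, was at 88.8, 78.8 and 83.1 FPKM in CTR and 47.0, 43.8 and 45.0 FPKM in miR-8485, and its log2 fold change was -0.88. SMURF2, a ubiquitin ligase that acts on receptors and SMADs, had a change of -0.77 and the SMAD co-repressor SKIL one of -0.50. Its relative SKI was higher by 0.35, as was the phosphatase gene CTDSPL by 0.28, the latter named after its values were seen and not called after rescaling to TPM.

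Among other targets, 3 of 5 tested were lower and 1 was higher. The homeobox genes DLX2, MSX2 and MSX1 had log2 fold changes of -1.18, -1.05 and -0.71. MSX2 was at 27.3, 28.0 and 27.6 FPKM in CTR and 12.95, 12.2 and 15.1 FPKM in miR-8485, so that its groups lay apart. GATA2 was higher by 0.20, a call lost in 8 of 18 alternatives, also without CTR replicate 1 (adjusted p = 0.103), CTR replicate 3 (0.0689), miR-8485 replicate 1 (0.0552) or miR-8485 replicate 3 (0.125). Of the E proteins that ID proteins bind, TCF3 rose from 27.2 ± 0.648 to 33.8 ± 0.739 FPKM (SD, n = 3 each), a log2 fold change of 0.31 (standard error 0.042, limma adjusted p = 0.000519). TCF12 passed the test in neither direction, and TCF4 was at most 0.00199 FPKM.

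**Figure D4:**
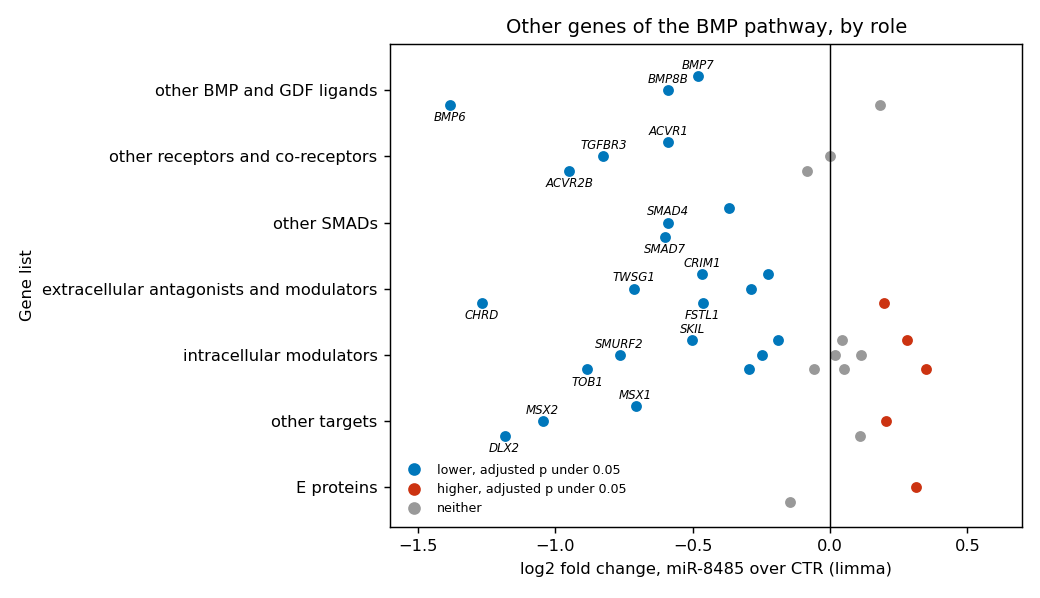
The log2 fold change of miR-8485 over CTR (horizontal axis) for each of the 39 other pathway genes tested, by role, with a point for each gene coloured by its limma call. Of these, 24 lie to the left as lower, 5 to the right as higher and 10 as neither, and points are spread vertically within a list only for legibility.

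The seed matches shown above can be set beside these changes. Matches were present in 6 of the 10 members by the longest 3′ UTR and in 5 by the canonical one. They were present in 31.4% and 28.9% of the tested genes with an annotated 3′ UTR. BMP2 and ID4 held matches in both but did not pass the filter on FPKM, so members and tested genes are unlike sets here. Over those tested genes the median log2 fold change was -0.14 with a match and 0.019 without, by the longest 3′ UTR. The genes with and without a match were not matched for length, and the part of length in this gap was not tested. Among the members BMPR1A and BMPR2, with the TG runs printed above, were lower, SMAD5 with 2 matches passed the test in neither direction, and ID4 with 3 was higher in each library without passing it. ID1 and ID2, the members with the lowest log2 fold changes, held 0 matches, as did ID3, which rose. A match describes letters in an annotation and does not show that the site was used.

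**Figure D5:**
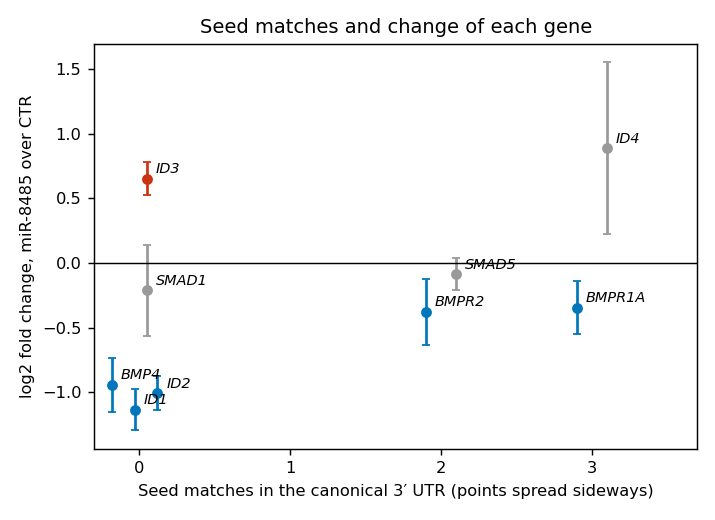
Number of seed matches in the canonical 3′ UTR (horizontal axis, points of the same number spread sideways) against the log2 fold change of miR-8485 over CTR with its 95% interval, for 9 members. ID1, ID2 and BMP4 sit at 0 matches with changes near -1, and ID3 sits at 0 matches above the zero line.

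The promoters were searched for GGCGCC, a GC-rich element that BMP-activated SMADs bind and that reads the same on both strands. RefSeq promoters on GRCh38.p14, 300 bases around a start site, were matched for 9 of the 10 members. The letters were present for BMP4, BMPR2, SMAD1 and SMAD5, in 5 of 15 member promoters, and in 19.2% of 35116 promoters of that length. BMP4 also had promoters without the letters, at chr14:53954439-53954738 and chr14:53953346-53953645. Its match next to the start site of the remaining promoter, at chr14:53955036-53955057 on the - strand, is printed with the element in capitals. That of BMPR2, at chr2:202376172-202376193 on the + strand, is printed in the same way. They are examples from a ligand and a receptor that fell.
BMP4 promoter: cgcgcaggGGCGCCcgcggcct
BMPR2 promoter: ccgccgccGGCGCCgccgccgc
The windows of ID1, ID2, ID3, ID4 and BMPR1A did not hold these letters, which says nothing of SMAD binding elsewhere.

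The genes whose pattern over the 6 libraries was most like that of ID1 were ADM, PLOD2 and ETS1, by Pearson r of log2(FPKM + 0.1) among 10720 protein-coding genes past the filter. Their r was 0.9992, 0.9991 and 0.9989. ADM, which encodes a vasoactive peptide, had a mean of 50.8 FPKM in CTR and 23.9 in miR-8485. An r of at least 0.95 with ID1 was reached by 1862 of these genes, or 17.4%, since 6 libraries in 2 groups separate many genes in the same way.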

How the data were processed

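RNA-seq had been performed on 3 CTR and 3 miR-8485 libraries of HCT116 cells, grouped by the labels. The authors trimmed reads, mapped them to hg38 with HISAT2 2.0.5 and counted fragments per gene with featureCounts 1.5.0-p3, tools named in the submitters' processing notes and the study's methods. The deposited values were FPKM by the authors. The annotation release was not given in the sources used here. The study tested counts with another tool, whereas limma 3.58.1 in R 4.3.3 was used here because the values are FPKM.

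The test was two-sided on log2(FPKM + 0.1) with a variance trend and Benjamini-Hochberg adjustment, over 12349 genes with a mean of at least 1 FPKM. The pseudocount shrinks the fold changes of low genes. Members below that mean were read from a fit of all 31768 genes above 0. In each library 100% of values above 0 were whole fragments within 0.01 after undoing length and depth, and voom was run on these recovered fragments as an alternative. It called 3920 genes higher and 3895 lower. The fragments of a gene bound its counting error, and the standard errors also hold the spread between replicates. On data simulated for this comparison with 12428 genes, limma recovered 62 of 100 genes changed by 0.5 and 95 of 97 changed by 1 on the log2 scale, with 7 false calls. The simulation changed far fewer genes than were called here and gave all genes the same dispersion between replicates. Its rates therefore need not hold for the real libraries.

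The members and lists were chosen with earlier results of these data known. All 10 members are named, and of each list the called genes (the 4 with the largest change where more were called) and every receptor and SMAD past the filter. Alternatives were pseudocounts, filters, scalings, trends, voom, a replicate block, leaving out each library and, chosen after seeing the data, removal of a GC trend. Of the 58735 gene identifiers, 58207 were in GENCODE 44. Python 3.11.15 was used for summaries.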

Additional observations from a re-analysis of the deposited data

How the results depend on the processing

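BMP4, BMPR1A, ID1, ID2 and ID3 kept their direction and their call under every alternative fit that gave a value, with log2 fold changes of -1.06 to -0.88, -0.46 to -0.24, -1.40 to -1.07, -1.15 to -0.98 and 0.46 to 0.69. Over all members 161 of 174 values kept direction and call, 6 lost the call (all BMPR2), 5 gained it (ID4 and SMAD5) and 2 reversed (SMAD5, 0.00042 without the length trend and 0.042 without the GC trend). Of 452 values of named pathway genes 419 kept both, 25 lost the call and 8 reversed, which were ACVR2A and RGMB, neither of them called. ACVR2A was at -0.0064 with median-of-ratios scaling, -0.012 with quantile normalization, -0.11 in TPM and -0.035 to 0.044 on leaving out single libraries, and RGMB at -0.21 to 0.030 on leaving them out. The number of members called higher was 2 with a pseudocount of 0.01, without a variance trend or by voom, 1 to 2 on leaving out single libraries (2 without CTR replicate 1) and 0 with an absolute log2 fold change of at least 1, which left 2 lower. A filter at 5 FPKM gave 2303 genes higher and 2417 lower, 3 members lower and 9 pathway genes lower, as fewer genes were tested. Pathway genes called higher numbered 3 without the filter, without a variance trend or without the GC trend, 2 in TPM and 3 to 4 on leaving out single libraries (3 without miR-8485 replicate 1). Same-numbered libraries deviated together with r of 0.067, 0.033 and -0.064, and differently numbered ones with r of -0.094 to 0.061. These values show no pairing by number, but with 3 libraries a group they cannot exclude it. With a replicate block 3634 genes were higher and 3754 lower, and members called stayed at 1 higher and 5 lower, while pathway genes called lower went from 24 to 22 and SMAD6 lost its call (adjusted p = 0.0532). ID4 with 13 to 40 fragments and BMP2 with 0 in 5 libraries are thinly covered.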
